A study of Homo sapiens with 3 samples.

Results

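The IFIT family of interferon-induced proteins was followed on 3 expression arrays of HEK293T cells, a human embryonic kidney line that expresses large T antigen of SV40. The family was taken as IFIT1, IFIT2, IFIT3 and IFIT5, and its members were all probe sets that GEO's annotation of the array names for one of these genes. This gave 5 of 22277 probe sets, or 4 of the 11963 genes named on the array: 1 set each for IFIT1, IFIT2 and IFIT3, and 2 for IFIT5. The genes were selected on their log2 differences between the sgTetOmut array and the other arrays, so the differences of the sgTetOmut array below are a description and no test.

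All 3 cultures received dCas9VP160, a Cas9 without nuclease activity that is joined to the VP160 transcriptional activation domain, by transfection of 2 µg of DNA in all with 6 µl of Fugene HD. They differed in the guide RNA. The sgTetOmut array carried a mutated form of the sgTetO guide, which the labels give as a control without a target. The sgTetO array carried a guide to the TetO promoter, a bacterial operator sequence used to drive inducible transgenes, and the labels name no human target for it. The sgIL1RN1~3 array carried guides to the promoter of IL1RN, the gene of the interleukin-1 receptor antagonist. Each guide had 1 array, so no value has a replicate error, no difference could be tested, and what belongs to a guide cannot be told apart from what belongs to its single culture or array. In a whole culture, fewer responding cells and less RNA per cell cannot be told apart either.

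IFIT proteins are built from tetratricopeptide repeats, helical pairs that bind proteins or RNA. They are made at low levels in resting cells, and their genes are switched on by type I interferon and by sensing of viral RNA. IFIT1 binds RNA whose cap lacks the methyl group that marks a cell's own transcripts and keeps it from the translation machinery, IFIT3 stabilises IFIT1 and links signalling proteins, IFIT2 also binds RNA and is tied to cell death, and IFIT5 binds RNA with a triphosphate end. Interferon acts through a complex of transcription factors that includes IRF9 and binds the interferon-stimulated response element (ISRE) in the promoters of its target genes.

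The sequence upstream of the members is shown because the 4 genes differed in the same direction between arrays and because interferon acts through sites in such stretches. RefSeq's promoter table (GRCh38.p14) held 1 promoter for IFIT1, 2 for IFIT3, which has 2 annotated starts, and 1 for IFIT5. IFIT2 was not matched. The 250 bases before each start lie on the plus strand at chr10:89392373-89392622 for IFIT1, at chr10:89327747-89327996 and chr10:89332279-89332528 for the first and second start of IFIT3, and at chr10:89414318-89414567 for IFIT5. Capitals mark matches to the ISRE core, GAAA followed by any 2 bases and GAAA again, searched on both strands. Every match lay on the minus strand and so reads TTTC, 2 bases, TTTC here.
IFIT1: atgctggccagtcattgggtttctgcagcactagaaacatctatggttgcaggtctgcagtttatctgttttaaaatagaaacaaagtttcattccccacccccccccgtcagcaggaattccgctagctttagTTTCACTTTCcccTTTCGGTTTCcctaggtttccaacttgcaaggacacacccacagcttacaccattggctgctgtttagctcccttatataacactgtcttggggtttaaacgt
IFIT3, first start: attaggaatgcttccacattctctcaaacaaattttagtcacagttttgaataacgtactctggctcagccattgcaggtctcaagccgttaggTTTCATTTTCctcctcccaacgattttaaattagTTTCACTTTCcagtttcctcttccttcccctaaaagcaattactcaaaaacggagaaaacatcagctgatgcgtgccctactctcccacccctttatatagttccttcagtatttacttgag
IFIT3, second start: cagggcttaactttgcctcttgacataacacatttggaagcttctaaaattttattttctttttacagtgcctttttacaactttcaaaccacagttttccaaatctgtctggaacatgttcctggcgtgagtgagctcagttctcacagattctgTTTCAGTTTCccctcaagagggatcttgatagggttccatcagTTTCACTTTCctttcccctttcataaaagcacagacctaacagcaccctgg
IFIT5: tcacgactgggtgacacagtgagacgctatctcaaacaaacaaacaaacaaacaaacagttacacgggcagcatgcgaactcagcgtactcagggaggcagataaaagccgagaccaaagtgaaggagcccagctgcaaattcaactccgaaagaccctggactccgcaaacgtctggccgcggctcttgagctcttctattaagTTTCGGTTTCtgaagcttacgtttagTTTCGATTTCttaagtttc
Each of the 4 stretches held 2 matches that did not overlap. Counted with -1 as the last base before the start, those of IFIT1 lay at -116 to -107 and -103 to -94. IFIT3 had them at -156 to -147 and -122 to -113 before its first start, and at -94 to -85 and -51 to -42 before the second. In IFIT5 they lay nearest to the start, at -45 to -36 and -19 to -10. The first of the IFIT1 matches and the nearer match of both IFIT3 promoters share the same bases, TTTCACTTTC, while the second of IFIT1 and the first of IFIT5 share TTTCGGTTTC. Over all 35116 promoters of the table, 3.02% held at least 1 match in these 250 bases. IFIT1B, the family gene that lies between IFIT3 and IFIT1 on chromosome 10 and has no named probe set, had 0 matches in the same window. A match is a run of letters and shows no binding, and the lack of a match does not show that an ISRE is absent.

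**Figure D1:**
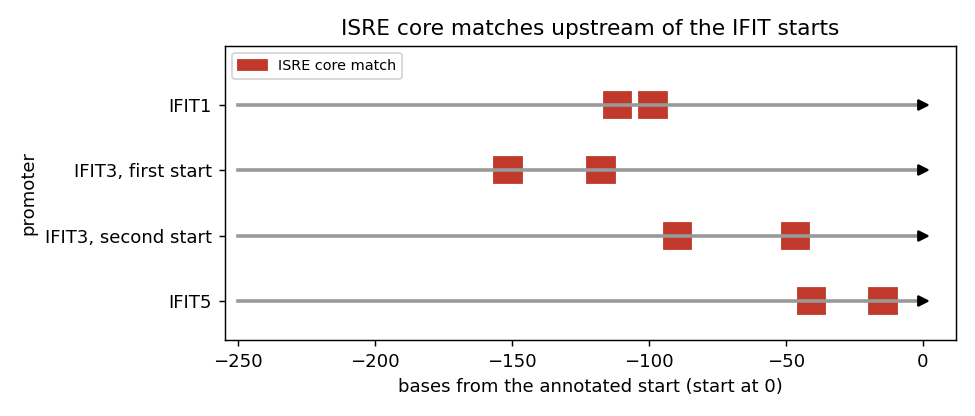
Positions of ISRE core matches (red blocks) in the 250 bases before the annotated starts of IFIT1, IFIT3 (2 starts) and IFIT5; the x axis gives bases from the start, and arrowheads mark the start. Each line carries 2 matches, nearest to the start in IFIT5 and furthest before the first start of IFIT3.

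Values are log2 expression as deposited by the authors. A difference of 1 on this scale is 2-fold, and that was the limit used to count a gene. As a background scale, the highest of 27 probe sets for Bacillus subtilis transcripts read 3.29 on the sgTetOmut array and 3.40 on each of the other arrays. All 5 IFIT sets lay above it on every array. A level is compared below only between arrays for one probe set, since the brightness of different sets depends on their probes.

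IFIT1 was highest on the sgTetOmut array. Its probe set, 203153_at, had a log2 value of 11.8 with sgTetOmut, 10.1 with sgTetO and 9.59 with sgIL1RN1~3. The first of these was well apart from the other arrays, by 1.67 log2 units (3.18-fold) over sgTetO and 2.20 (4.59-fold) over sgIL1RN1~3. Among all named genes the difference ranked 26 of 11963 against sgTetO and 15 against sgIL1RN1~3.

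IFIT3, the partner of IFIT1, had the widest gap of the 4 on the deposited scale. Set 204747_at read 6.57 with sgTetOmut, 3.99 with sgTetO and 3.94 with sgIL1RN1~3. The last of these values lay close to each other and little above the Bacillus scale. The differences of 2.58 (5.99-fold) and 2.63 (6.18-fold) ranked 5 and 9 among all named genes. With 16 added to the linear values, which compresses low signals, they were 1.80 and 1.82, and the second was then under the 2.18 of IFIT1.

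IFIT2 showed the same order at a smaller distance. Its set 217502_at read 5.81 with sgTetOmut, 4.21 with sgTetO and 3.97 with sgIL1RN1~3. The sgTetOmut value stood above the others by 1.60 (3.02-fold) and 1.83 (3.56-fold), rank 28 in both comparisons. IFIT2 and IFIT1 differed from each other by 0.07 in their difference from sgTetO and by 0.37 in that from sgIL1RN1~3.

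IFIT5 had the smallest differences on the deposited scale, and its probe sets disagreed on their size. Set 203596_s_at, which stood for the gene because its mean over the 3 arrays was higher, read 11.6 with sgTetOmut, 10.2 with sgTetO and 10.0 with sgIL1RN1~3. It was 1.36 (2.56-fold) and 1.56 (2.94-fold) higher with sgTetOmut, ranks 38 and 33. Set 203595_s_at read 11.0, 10.3 and 9.97 in the same order of arrays. Its differences were 0.67 (1.59-fold) and 0.99 (1.99-fold), both short of 2-fold. With 16 added to the linear values IFIT2, at 1.06 and 1.18, had smaller differences than the 1.35 and 1.54 of IFIT5. The sgTetOmut array was highest in both sets, and whether IFIT5 passed the limit depended on the set. The IFIT genes are paralogs, and which transcripts the probes of each set match was not analysed here.

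**Figure D2:**
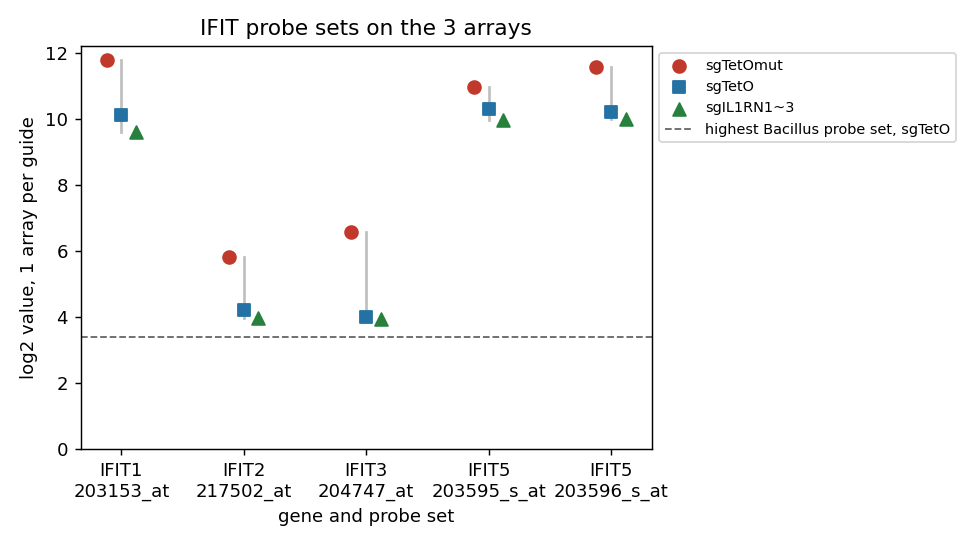
Deposited log2 value (y axis) of each IFIT probe set (x axis) on the sgTetOmut (circle), sgTetO (square) and sgIL1RN1~3 (triangle) arrays, 1 array per guide; grey lines span the 3 values, and the dashed line is the highest Bacillus set on sgTetO, 3.40. The sgTetOmut value is the highest in all 5 sets, by 0.67 in 203595_s_at and up to 2.58 in IFIT3 over the next array.

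Counted by gene, 4 of 4 members passed the 2-fold limit on sgTetOmut against each other array; counted by probe set, 4 of 5 were. Over all named genes the share was 0.385% (46 of 11963), and no gene was 2-fold below both. Since the members were proposed from this contrast, nothing is read from their count. The median difference of the 4 genes was 1.63 over sgTetO and 2.02 over sgIL1RN1~3, against 0.01 and 0.00 over all named genes. Both differences contain the same sgTetOmut array, so they are not separate evidence. On the deposited scale IFIT3 and IFIT5 were 1.23 log2 units apart in their difference from sgTetO and 1.07 in that from sgIL1RN1~3. The order of the 4 genes by difference turned with 16 added to the linear values, as given above.

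**Figure D3:**
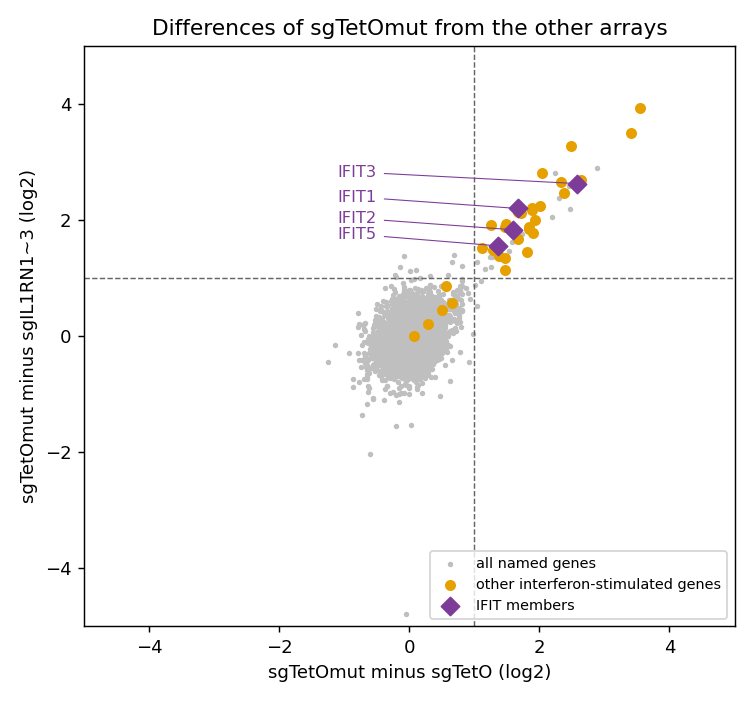
Difference of sgTetOmut from sgTetO (x axis, log2) and from sgIL1RN1~3 (y axis, log2) for each of 11963 named genes (grey), the 31 measured genes of the list of other interferon-stimulated genes (orange) and the 4 IFIT members (purple); dashed lines mark 2-fold, and both axes share the sgTetOmut array. The IFIT members lie past both lines, among the other interferon-stimulated genes, with IFIT3 at 2.58 and 2.63 on this deposited scale.

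Between the arrays without the high values, sgIL1RN1~3 and sgTetO, each member differed by under 2-fold. IFIT1 was 0.53 log2 units lower with sgIL1RN1~3 (1.44-fold), IFIT2 was 0.24 lower (1.18-fold), IFIT5 0.20 lower by 203596_s_at and 0.32 lower by 203595_s_at, and IFIT3 0.04 lower (1.03-fold). All 5 sets of the 4 genes were thus lower on sgIL1RN1~3, where 43.3% of all named genes were lower. So were 22 of the 31 measured genes in the list of other interferon-stimulated genes. The SD of this difference over all named genes was 0.26, and 2.33% of them were at least as far down as IFIT1, 13.1% as IFIT2, 16.4% as IFIT5 and 36.0% as IFIT3. None of the 4 members was among the 13 genes (0.109%) at least 2-fold lower with sgIL1RN1~3 than with sgTetO. The chip's control sets near the 5' ends of the ACTB and GAPDH transcripts, measures of RNA integrity and labelling, were 0.95 and 0.84 higher on sgIL1RN1~3 than on sgTetO, while those near the 3' ends differed by 0.06 and -0.01. Their part in the IFIT differences was not tested. The same 5' sets differed by 0.13 and 0.18 for sgTetOmut minus sgTetO, and by -0.82 and -0.66 for sgTetOmut minus sgIL1RN1~3, the comparison in which the IFIT folds were larger.

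**Figure D4:**
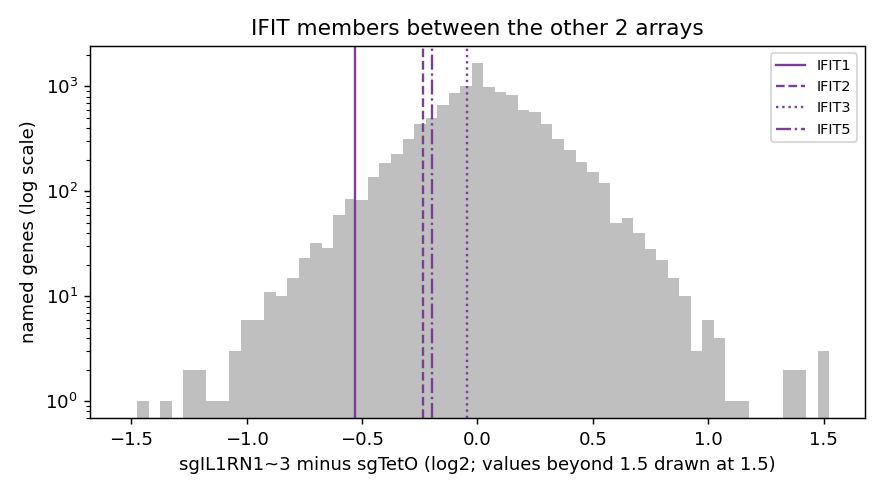
Distribution over 11963 named genes (y axis, log scale) of the log2 difference of sgIL1RN1~3 minus sgTetO (x axis), with lines at the 4 IFIT members. IFIT1 lies furthest down at -0.53, IFIT2 and IFIT5 at -0.24 and -0.20, and IFIT3 near 0 at -0.04.

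The genes upstream of the IFIT family were described from a list of interferons, receptor, kinases, transcription factors and inhibitors. This list too was written with earlier results of these arrays known. Of its 14 genes, 12 were named on the array. Of the 12, 2 passed the 2-fold limit over both on sgTetOmut, against 0.385% of all named genes. IFNB1, which encodes interferon beta, read 5.98 with sgTetOmut, 3.53 with sgTetO and 3.40 with sgIL1RN1~3. The value with sgTetO was barely above background and that with sgIL1RN1~3 was not above it. The gene was thus 5.48-fold higher with sgTetOmut than with sgTetO and at least 5.98-fold higher than with sgIL1RN1~3, close to the folds of IFIT3. IRF9, the DNA-binding part of the complex that acts at the ISRE, read 8.57 with sgTetOmut and 7.41 on each other array, a difference of 1.16.

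The other regulators stayed under the limit. IRF7, a factor that amplifies interferon production, was 0.56 above sgTetO and at least 0.81 above sgIL1RN1~3, where it was at background. IRF1, another factor of this family, was 0.57 and 0.35 above sgTetO and sgIL1RN1~3. The receptor chain IFNAR2 differed by 0.18 and 0.23, though its second set read -0.53 and -0.46. IFNAR1, the other chain, differed by -0.22 from both. It read 3.63 with sgTetOmut and 3.84 on each other array, little above background. The receptor's kinases JAK1 and TYK2 differed by 0.11 and 0.14, and by -0.35 and -0.01. IRF3, which acts directly downstream of RNA sensors, differed by 0.09 and -0.19. The feedback inhibitors SOCS1 and SOCS3 differed by 0.10 and -0.51, and by -0.14 and 0.01. The further sets of SOCS1 were at background on all 3 arrays. SOCS3 read 3.60 with sgTetOmut, 3.73 with sgTetO and 3.58 with sgIL1RN1~3, little above background. IFNA1 was at background on all 3 arrays. Values so low limit what these small differences show. The median of the 12 was 0.14 over sgTetO and 0.18 over sgIL1RN1~3, or 0.10 and 0.07 with values under background raised to it.

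Other interferon-stimulated genes were high on the same array as the family. Their list was written with earlier results of these arrays known. Of the 31 measured genes, 26 passed the 2-fold limit over both on sgTetOmut (25 when low values are raised to background), against 0.385% of all genes. Their median difference of 1.71 over sgTetO and 1.88 over sgIL1RN1~3 was close to that of the IFIT members. RSAD2, an antiviral enzyme that makes a chain-terminating nucleotide, was furthest apart, at 9.55 with sgTetOmut against 6.00 with sgTetO and 5.61 with sgIL1RN1~3. OAS2, which makes the activator of RNase L, read 8.48 against 5.08 and 4.98, while its second set was at background on all 3 arrays. MX2, an antiviral GTPase, read 5.99 with sgTetOmut and was not above background on the other arrays, so that it was at least 6.02-fold higher. The 5 genes that did not pass, picked out after their values were seen, were EIF2AK2, ADAR, ZC3HAV1, MX1 and PARP12. Of these, EIF2AK2, the RNA-activated kinase PKR, was 0.66 above sgTetO and 0.57 above sgIL1RN1~3, and PARP12 was at background on all 3 arrays. MX1 read 4.03 with sgTetOmut, 3.53 with sgTetO and 3.57 with sgIL1RN1~3, little above background, which limits what its small difference shows. ZC3HAV1 was 0.56 above sgTetO and 0.86 above sgIL1RN1~3, but 0.90 and 0.17 in its second set.

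**Figure D5:**
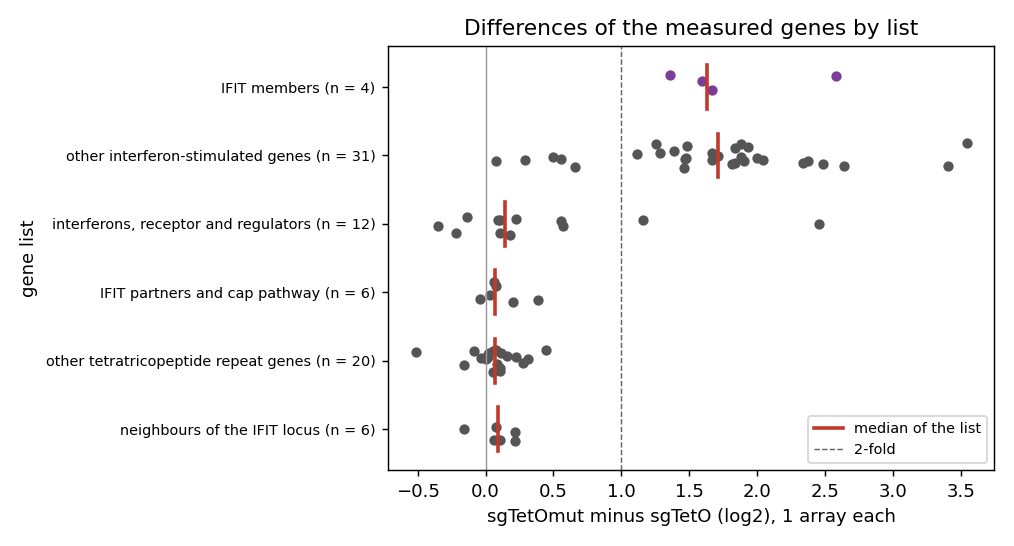
Difference of sgTetOmut minus sgTetO (x axis, log2, 1 array each) for the IFIT members (purple) and the measured genes of 5 lists (grey), with the median of each in red and 2-fold dashed. The IFIT members and the other interferon-stimulated genes centre at 1.63 and 1.71, while the medians of the remaining lists lie between 0.07 and 0.14.

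The genes with a pattern most like the family were sought among 8974 named genes above background on all 3 arrays. Likeness was the distance, in log2 units, between the pair of differences of a gene from sgTetOmut on the other 2 arrays and the mean pair of the 4 members. With 3 arrays this compares no more than 2 numbers per gene. The nearest were SHFL, an inhibitor of viral translation (distance 0.12), IFITM1, which restricts virus entry (0.14), UBE2L6, the conjugating enzyme for ISG15 (0.14), SP110, a nuclear body protein (0.15), and ISG15, the ubiquitin-like modifier itself (0.18).

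Each member had its own neighbours. IFIT1 lay nearest to SP110 (0.07), SHFL (0.08) and IFITM1 (0.21). IFIT2 lay nearest to RASGRP3, a Ras-family exchange factor outside the lists used here (0.09), and to the RNA helicases DDX60 (0.13) and RIGI (0.15). RASGRP3 read 5.79 with sgTetOmut, 4.25 with sgTetO and 3.88 with sgIL1RN1~3. For IFIT3 they were OAS1 (0.25), OASL (0.26) and the nuclear body gene SP100 (0.38). IFIT5 lay nearest to TRIM21, an antibody receptor in the cytosol (0.14), USP18, which removes ISG15 (0.17), and the chemokine CCL5 (0.19). Without the filter on background, a choice made after seeing the data, MX2 (0.08) and IFNB1 (0.13) came before OAS1 for IFIT3, and the apoptosis-linked XAF1 (0.11) came first for IFIT5. The nearest genes of the mean pair, IFIT1 and IFIT2 were the same. Other sets of these genes would give other distances, which were not computed. On sgTetOmut SP110 was 1.67 and 2.13 above sgTetO and sgIL1RN1~3 in the set used, and 1.87 and 1.83 in another. SHFL was 1.71 and 2.13 above them, and 1.88 and 1.96 in its second set. The second set of IFIT5 gave 0.67 and 0.99.

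The measured partners through which IFIT proteins act were close on the 3 arrays in the sets that stood for them. Of 10 genes listed, EIF3C, CMTR2, RNMT and STING1 were not measured. Of the 6 named on the array, 0 passed the limit on sgTetOmut. This is near the share of all named genes, 0.385%, and nothing is read from the count. The median was 0.07 over sgTetO and 0.08 over sgIL1RN1~3. EIF3E, a subunit of the translation factor bound by IFIT1, read 13.0, 12.9 and 12.9 with sgTetOmut, sgTetO and sgIL1RN1~3. EIF4E, which binds the cap in competition with IFIT1, differed from sgTetO by 0.06 and from sgIL1RN1~3 by -0.10, and by 0.32 and 0.09 in another of its sets. CMTR1, the enzyme whose methyl mark lets a transcript escape IFIT1, differed by 0.39 and 0.12, the largest of the 6 over sgTetO. RNGTT, which starts the cap, differed by -0.04 and -0.14, while further sets above background on all 3 arrays read 0.38 and 0.29, and -0.47 and 0.19. MAVS and TBK1, the adaptor and kinase joined by IFIT3, differed by 0.08 and 0.19, and by 0.20 and 0.34.

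Genes that share the IFIT repeat but belong to other families were set beside it. Of 20 measured genes with tetratricopeptide repeats, 0 passed the limit on sgTetOmut, against 0.385% of all named genes. A count of 0 among 20 is near that share, so nothing is read from it. Their median was 0.07 over sgTetO and 0.02 over sgIL1RN1~3. The 3 furthest from 0 in the difference from sgTetO were TTC9 at -0.51 (0.26 in its second set), TTC31 at 0.44 and TTC17 at 0.31.

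The genomic neighbours of the family on chromosome 10 that were named on the array did not differ by 2-fold either. RefSeq's order there is CH25H, LIPA, IFIT2, IFIT3, IFIT1B, IFIT1, IFIT5, SLC16A12, PANK1 and KIF20B. Within 500 kb of the 4 members it lists 12 other protein-coding genes, 6 of them named on the array. Of the 6, 0 passed the limit, against 0.385% of all named genes, and 4 were above background on all 3 arrays. LIPA, a lysosomal lipase gene next to IFIT2, read 11.7 with sgTetOmut, 11.5 with sgTetO and 11.7 with sgIL1RN1~3. KIF20B, a kinesin gene on the other side, read 10.1, 10.0 and 10.0. FAS, the death receptor, differed by 0.08 from sgTetO and -0.24 from sgIL1RN1~3, and its further sets by -0.20 to 0.33 from sgTetO. ACTA2, smooth muscle actin, differed by -0.16 and -0.29. STAMBPL1, a deubiquitinase, differed by 0.10 from sgTetO and was at background on sgIL1RN1~3. CH25H, which makes 25-hydroxycholesterol and is itself known as an interferon-responsive gene, was at background on all 3 arrays. With so few genes, a count of 0 is near the share of all named genes. It does not show that the differences of this stretch were limited to the IFIT genes. The 6 unnamed neighbours were not analysed here.

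The promoter motif was counted for the same genes. Of the 46 genes past the limit on sgTetOmut, 37 had an entry in the promoter table, and 22 of these (59.5%) held an ISRE core match in a 250-base window, IFIT1, IFIT3 and IFIT5 among them. Over all 9563 named genes with an entry, 341 (3.57%) did. In the list of other interferon-stimulated genes 16 of 27 with an entry held a match, among them ISG15, IFIH1 and HERC5, while OAS1, RIGI and UBE2L6 had none. The 46 genes were taken from the contrast on which the members were chosen. They include the IFIT members and 26 of the listed genes, so these shares overlap and nothing is read from them. The gene with the pattern nearest to the IFIT members, SHFL, held 1, and SP110 held none. Only this spacing in this 250-base window was searched, so a promoter without a match may still hold an ISRE.

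The labelled cell line was checked against its markers. All 6 markers listed for HEK293T, VIM, KRT8, KRT18, NEFL, NEFM and PAX2, were above background on every array, and all but KRT8 and PAX2 also reached the median of named genes on each. Of 7 markers of blood and endothelial cells, which could bring interferon responses of their own, PTPRC, CD3D, VWF and LYZ were above background on no array and none reached the median of named genes. CD14 and HBB were above background on all 3 arrays, and PECAM1 on sgTetOmut alone, at 3.71. HBB was barely so, at 3.35 with sgTetOmut and 3.51 on each other array. CD14 read 4.23 with sgTetOmut, 3.83 with sgTetO and 3.89 with sgIL1RN1~3, highest on the array where the IFIT genes were. The summed level of the 7, on the log2 scale, was 6.16 with sgTetOmut, 6.08 with sgTetO and 6.04 with sgIL1RN1~3. Of 4 fibroblast markers, COL1A1, COL3A1 and LUM were above background and above the median of named genes on all 3 arrays, and DCN was above background on none. Their summed level was 8.54, 8.55 and 8.62 in the same order of arrays. These values do not show whether other cells were present or the line itself gave the marker signals. A part of other cells in the IFIT differences was not tested.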

How the data were processed

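Expression was measured on 3 single-channel arrays, 1 per guide. The authors deposited log2 values for 22277 probe sets. The log2 unit was read from the values, which run from 1.36 to 14.5. The affy package was used, per the submitters' processing notes. Its version and the methods of background correction, normalization and summary were not given in the sources used here. At each rank the sorted columns differed from their mean by at most 0.104, so a difference is relative to the bulk of genes.

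Sets with 1 symbol in GEO's annotation (19070; 1043 had several and 2164 none) were named, with 19058 identifiers found in RefSeq's GRCh38.p14 table. A gene with several sets was read from the one brightest on average. Detection calls were not used, and values at or under the highest Bacillus set were treated as background. A fold over such a value is computed against that set and given as "at least". Genes were counted at a 2-fold limit with no minimum level. No test was possible with 1 array per group, and the number of arrays limits the precision. Members and lists were chosen with earlier results of these data known. The genes named by rule were all IFIT sets, the nearest patterns, the 3 genes furthest from sgTetO in the 2 larger lists, and all measured genes of the other lists. Genes named outside this rule include IFIT1B, the control sets, the cell markers and the interferon-stimulated genes that did not pass. IFIH1 and HERC5 in the motif count were outside it too. RefSeq proteins were not used here. The counting rule was tried on simulated data whose spread came from these single arrays. Such data do not show how reliable the 2-fold counts are. Python 3.11.15 with pandas 2.3.3, and limma 3.58.1 in R 4.3.3 for alternative scaling, were used.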

Additional observations from a re-analysis of the deposited data

How the results depend on the processing

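No paired analysis was possible because each guide has 1 array. The 12 member differences were recomputed under 7 alternatives: quantile, cyclic loess and median scaling, 16 added to the linear values, the mean of all sets of a gene, the set highest on sgTetO, and, chosen after seeing the data, low values raised to the highest Bacillus set. None of the 84 values changed sign, and 76 moved by less than 0.26, the SD of the sgIL1RN1~3 minus sgTetO difference over all named genes. Part of the 84 could not move, so the 76 overstate how stable the differences are. All IFIT sets lay above the highest Bacillus set, so raising low values left them as they were. IFIT1, IFIT2 and IFIT3 have 1 set each, so the choice or mean of sets left them unchanged too. With 16 added, IFIT2 was 1.06 over sgTetO and 1.18 over sgIL1RN1~3, and IFIT3 1.80 and 1.82, as an added constant compresses low values. With the mean of its sets IFIT5 was 1.01 and 1.27, and with the set highest on sgTetO 0.67 and 0.99, which takes it under 2-fold. The order of the members turned with 16 added, where IFIT1 (2.18) led over sgIL1RN1~3 and IFIT2 was lowest in both comparisons. The median of all genes moved by under 0.1 with scaling.

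The count of IFIT genes past the limit on sgTetOmut was 4, and 3 with the set highest on sgTetO (IFIT5 drops out), at 3-fold (IFIT5) or with a minimum level at the median (IFIT2). Of all named genes, 74 were above both other arrays on sgTetOmut at 1.5-fold and 27 at 3-fold. Of the other interferon-stimulated genes 17 were so at 3-fold. Genes apart between sgIL1RN1~3 and sgTetO numbered 27, but 6 with 16 added, 13 with the mean of sets, 418 at 1.5-fold, 1 at 3-fold and 10 with a minimum level at the median. Signals of IFIT2 and IFIT3 near background on sgTetO and sgIL1RN1~3 limit how well their folds are known.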
